A study of Homo sapiens with 12 samples.

Results

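The distribution of RNA over a ribosome density gradient is described for U87MG cells, a human glioblastoma cell line, kept for 24 hours in hypoxia (1% oxygen) at pH 7.4. Each locus was placed by its level in the polysome fraction over that in the monosome fraction, with the oligosome fraction between them. The 3 libraries, 1 per fraction, are 3 of the 12 of the series, and with 1 library per fraction no value has a replicate check and no test was run. Of 55598 loci in the deposited table, the 11650 with a mean of at least 1 FPKM over the 3 libraries were kept (FPKM counts fragments relative to transcript length and library size, so it is a level per length). Of these, 8828 name 1 gene, 2250 name several and 572 have no gene name. The lowest mean kept was 1.0001 FPKM, and the highest left out was 0.9999 FPKM. The same quantity in normoxia at pH 7.4, also 24 hours and 3 libraries, is set beside it. The labels name no transgene and no agent, and whether the 3 fractions of a condition came from 1 lysate is not given in the sources used here.

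In a density gradient an mRNA travels with the ribosomes it carries, so mRNA with many ribosomes collects in the heavy polysome fraction, and free mRNA or mRNA with a single ribosome stays in the light one. The number of ribosomes on an mRNA depends on how often translation starts, how fast ribosomes move and how long the coding sequence is. RNA that is not translated sediments by its other protein partners. Cells in low oxygen are known to lower cap-dependent initiation, in part through the kinase mTOR, to which mRNAs with a pyrimidine tract at their start (TOP mRNAs, which encode ribosomal proteins and elongation factors) are particularly sensitive.

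To obtain a position, 1 FPKM was added to both levels, the log2 ratio of polysome to monosome was taken, and its median over the 11650 loci was subtracted. The median locus had a ratio of 1.13 before centring, and position 1 is 2-fold above it. A locus at 1 or more is called heavy and a locus at -1 or less light. FPKM is scaled per library, by a normalization not given in the sources used here. A position therefore compares relative levels in the fractions and not amounts. In such bulk samples fewer cells of a type and less RNA per cell cannot be told apart. The summed FPKM was 462704 in the polysome library, 474910 in the oligosome library and 1258248 in the monosome library. The 100 most abundant loci held 40.6% of the sum in the polysome library, 42.9% in the oligosome library and 68.7% in the monosome library. Among loci under 0.5 FPKM, the most common ratio between libraries put the depth of the polysome library at 2.95 times, and that of the oligosome library at 3.0 times, that of the monosome library. The polysome ratio held at 38 of 2823 such loci and the oligosome ratio at 84 of 3334. They stand for depth only if FPKM was scaled to library size, and the normalization is not given. Depth in reads is unknown. The authors' RNA factors, which scale FPKM to the RNA found in each fraction, were 4.039 for the polysome, 3.11 for the oligosome and 1.381 for the monosome fraction. They raise polysome over monosome 2.92-fold at every locus. With those factors the median locus had 49.3% of its signal in the polysome fraction and 14.5% in the monosome fraction.

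The label of hypoxia was checked with 4 targets of hypoxia-inducible factors, averaged over the 3 fractions. CA9, a cell surface carbonic anhydrase, had 526 FPKM in hypoxia and 58.7 FPKM in normoxia, and NDRG1 had 820 FPKM in hypoxia and 68.1 FPKM in normoxia. VEGFA, the vascular growth factor, had 556 FPKM in hypoxia and 112 FPKM in normoxia, and IGFBP3, a carrier of insulin-like growth factors, had 257 FPKM in hypoxia and 6.77 FPKM in normoxia. All 4 stood higher in the libraries labelled hypoxia. Of 14 markers of mesenchymal glioma cells 9 were members, among them VIM, the intermediate filament vimentin, with 3102 FPKM in the polysome, 4687 FPKM in the oligosome and 7899 FPKM in the monosome fraction. Of 25 markers of other cell types 6 were members, the highest being the keratin KRT8 with 2.079, 9.074 and 39.44 FPKM in polysome, oligosome and monosome. The blood marker PTPRC and the astrocyte marker AQP4 were listed at 0 in the 3 libraries, while the neuronal marker SNAP25 had 7.759 FPKM in the polysome, 8.28 FPKM in the oligosome and 3.818 FPKM in the monosome fraction.

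Loci were spread unevenly, with a longer tail on the light side. Of the 11650, 1918 were heavy (16.5%) and 3027 light (26.0%). The lowest 25% of positions lay under -1.06, the highest 25% above 0.72, and the 1% at either end lay below -4.77 or above 2.17. With each library centred on its median, 4890 loci (42%) were highest in the polysome, 2971 (25.5%) in the oligosome and 3789 (32.5%) in the monosome library. The most abundant loci lay lightest. Of the 734 with a mean of 100 FPKM or more, 51.6% were light, with a median position of -1.13. Among the 4744 loci under 5 FPKM 28.0% were light and 10.3% heavy (median -0.17). From 5 up to 20 FPKM 20.1% were light and 20.2% heavy, and from 20 up to 100 FPKM 23.8% and 23.0%. The median was 0.19 in both of these classes. Over 7295 coding loci Spearman's rho between mean FPKM and position was 0.0. The mean includes the monosome level, so loci high in that library can enter the top class through it.

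Coding and noncoding RNA separated. The 7532 loci that name a protein coding gene had a median position of 0.22, with 19.5% heavy and 15.3% light. The 214 long noncoding RNA loci had a median of -1.92, with 83.6% light and 1 heavy locus (AL157359.3, named after its values were seen). Loci with no gene name resembled them, with a median of -2.29 and 83.6% light, as did 54 small RNA loci, with -2.88 and 83.3%. Some small RNA loci lay lower than any gene described here, such as SNORA76 at -8.07 with 10.5 FPKM in the polysome, 145.1 FPKM in the oligosome and 2722 FPKM in the monosome fraction (named after its values were seen). Pseudogene loci lay between, with a median of -1.36, 56.9% light and 7.99% heavy. Reads of a pseudogene and its parent gene can be shared between them, so these positions are uncertain. Loci that name several genes had a median of 0.05. By FPKM, loci with no name took 14.2% of the polysome sum, 5.23% of the oligosome sum and 3.16% of the monosome sum, although most of these loci were light. The most abundant of them was heavy, with 14800 FPKM in the polysome, 5340 FPKM in the oligosome and 2324 FPKM in the monosome fraction (position 2.49). The 2 loci of the mitochondrial genome, which hold its rRNAs, tRNAs and the messages that mitochondrial ribosomes translate, had values in the polysome library alone. The main one had 4596 FPKM there and was listed at 0 in the oligosome and monosome libraries, and a listed 0 for messages that every cell makes can be a failed estimate.

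**Figure D1:**
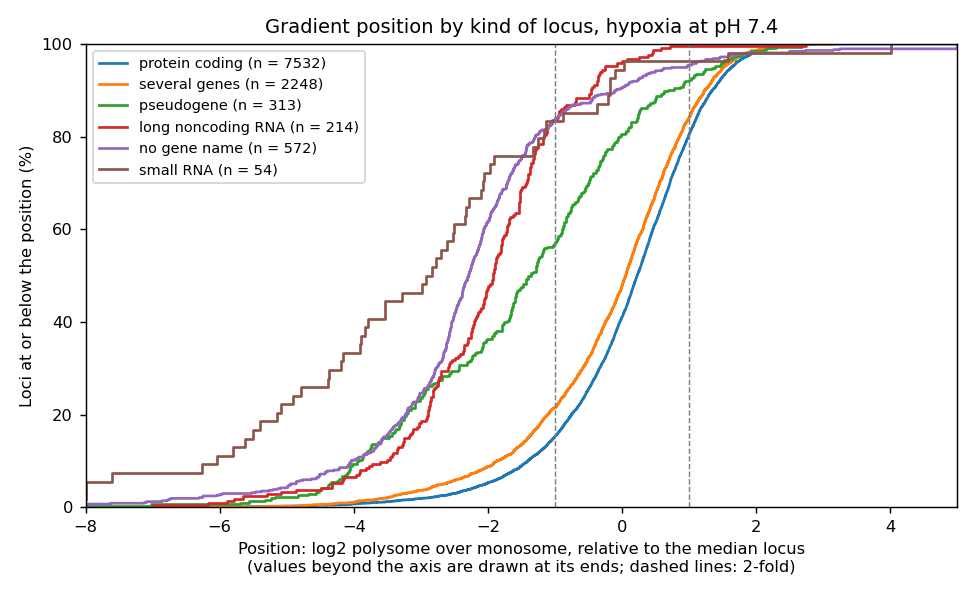
Cumulative share of loci (percent, vertical axis) by gradient position (log2 polysome over monosome relative to the median locus, horizontal axis), 1 curve per kind of locus, hypoxia at pH 7.4. The coding curve crosses 50% at 0.22, while the curves of long noncoding RNA, unnamed and small RNA loci cross it at -1.92, -2.29 and -2.88.

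The ribosomal protein mRNAs were the lightest lists of coding genes. All 58 members (38 of the large and 20 of the small subunit) were light, against 26.0% of all loci, and in all 58 the FPKM was highest in the monosome, then the oligosome, then the polysome library. The median position was -4.03 for the large and -4.05 for the small subunit. Their joint share of all FPKM was 5.99% in the polysome, 14.7% in the oligosome and 37.5% in the monosome library. Most of the distance lay between oligosome and monosome: the median centred log2 ratio of oligosome over monosome was -2.79 for the large and -2.73 for the small subunit, while that of polysome over oligosome was -1.21 for the large and -1.58 for the small subunit.

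At the light end was RPS12, a small subunit protein gene (chromosome 6, 132814441 to 132817564, GRCh38), with 390.1 FPKM in the polysome, 2507 FPKM in the oligosome and 32660 FPKM in the monosome fraction, a position of -6.56. RPLP1, an acidic stalk protein gene (chromosome 15, 69452784 to 69456194), had 340.4, 1502 and 25730 FPKM in polysome, oligosome and monosome, a position of -6.41. RPL39, which encodes 1 of the smallest proteins of the large subunit (51 residues), had 63.62, 440.6 and 3280 FPKM in the same order, a position of -5.84. The 3 mRNAs stood 94.5-fold, 85.3-fold and 57.5-fold below the median locus. RPS27, RPS21 and RPL37 followed at -5.52, -5.52 and -5.58. The least light members were RPL3, the large subunit protein nearest the peptidyl transferase centre, with 530.3 FPKM in the polysome, 1009 FPKM in the oligosome and 1450 FPKM in the monosome fraction (position -1.63, and 0.10 with the authors' RNA factors and no centring), and RPL14 with 544.5, 747.3 and 2252 FPKM (position -2.23). In the small subunit the least light was RPS16 at -3.40. Within the 58, shorter proteins lay lighter: the 19 of under 130 residues had a median of -4.72 and the 18 of 200 residues or more a median of -3.60 (Spearman rho of length and position 0.48 over 58 genes of the same 3 libraries). Processed pseudogenes of ribosomal protein genes are numerous, and how reads shared with them were assigned is not given in the sources used here.

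Elongation factor mRNAs and others that are known as TOP mRNAs lay in the same direction. Of the 17 measured, 16 were light and 0 heavy (median -2.61), against 26.0% light and 16.5% heavy of all loci. TPT1, which encodes the translationally controlled tumour protein, had 1243 FPKM in the polysome, 1916 FPKM in the oligosome and 27390 FPKM in the monosome fraction, a position of -4.64. EEF1A1, the elongation factor that brings aminoacyl-tRNA to the ribosome, had 696.7, 1896 and 10390 FPKM in polysome, oligosome and monosome, a position of -4.08. Among the least light were NPM1, a nucleolar chaperone, with 618.9, 589.4 and 1479 FPKM (-1.43), and the nuclear import receptor IPO5 at -0.92, the only member not called.

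Start sites were read from the RefSeq promoter table (GRCh38.p14), 10 bases before and 20 from the annotated first base, to show the tract where these mRNAs carry it. Capitals mark the unbroken run of C and T that begins within 5 bases of the first base. The first 5 genes are light and carry a run, and RPL32 (position -4.09) is a light ribosomal protein gene whose annotated start has none.
RPS12: cggatgaggCCTCTTTCCCTgccgccgccg
RPLP1: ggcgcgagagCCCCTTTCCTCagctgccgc
RPS27: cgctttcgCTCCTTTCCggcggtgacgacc
EEF1A1: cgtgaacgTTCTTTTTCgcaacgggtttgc
TPT1: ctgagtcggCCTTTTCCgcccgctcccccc
RPL32: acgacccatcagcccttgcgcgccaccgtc
They lie at chr6:132814559-132814588 (plus strand), chr15:69452808-69452837 (plus), chr1:153990752-153990781 (plus), chr6:73521013-73521042 (minus), chr13:45341164-45341193 (minus) and chr3:12841546-12841575 (minus), in the order shown. For contrast, the starts of heavy mRNAs for an intracellular chloride channel protein (CLIC4, position 3.36), a sialomucin (CD164, 2.90), the mitotic kinase CDK1 (2.86) and the chaperone BiP (HSPA5, 1.78) follow. The last 2 are FTL, the ferritin light chain (-4.60), and TMSB10, thymosin beta-10 (-4.04), light mRNAs outside the ribosomal and TOP lists. Of the 6, CDK1 holds a run of at least 15 bases, which reaches the end of the bases shown. TMSB10 holds one of 6, and the others hold none.
CLIC4: gacgccggacagtccagcgagcagcacggc
CD164: gggggagcgtagtctcggaggcggcgccgc
CDK1: ctttttctctagccgCCCTTTCCTCTTTCT
HSPA5: cggtgaggtcgacgccggccaagacagcac
FTL: acgtcccctcgcagttcggcggtcccgcgg
TMSB10: ccgctcttttgTTTCTTgctgcagcaacgc
They lie at chr1:24745437-24745466 (plus strand), chr6:109382448-109382477 (minus), chr10:60778321-60778350 (plus), chr9:125241324-125241353 (minus), chr19:48965299-48965328 (plus) and chr2:84905646-84905675 (plus).

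The run was counted over the 6065 coding members with an entry in that table, as at least 6 letters that are each C or T, beginning within 5 bases of the first base. Of 881 light genes 24.7% had such a run (95% exact binomial interval 21.9% to 27.7%, counting error only), of 3976 genes between the thresholds 14.6%, and of 1208 heavy genes 10.1%. Over all 27305 promoters of the table the share was 14.8%. Without the ribosomal protein and TOP mRNAs, 21.0% of the remaining 825 light genes had a run. The run was present in 21 of 29 large subunit genes, 13 of 15 small subunit genes and 12 of 13 of the other TOP mRNAs, a list that was named for such tracts. It was present in 2 of 19 proteasome genes, 1 of 12 lysosomal genes and 1 of 19 targets of hypoxia-inducible factors. The same run on the other strand had the opposite order, with 8.51% of light, 10.3% of middle and 11.7% of heavy genes. A run is a match of letters at an annotated start and not a measured transcript start.

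**Figure D2:**
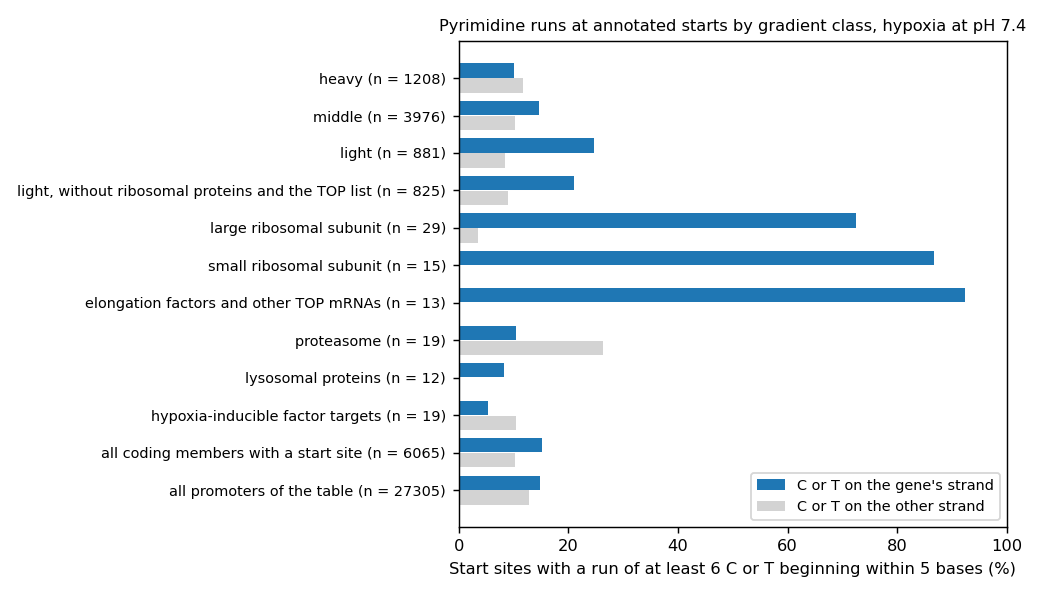
Share of annotated start sites (percent, horizontal axis) with a run of at least 6 C or T that begins within 5 bases of the first base, by gradient class and gene list, on the strand of the gene (blue) and on the other strand (grey). The share on the gene's strand was 10.1% in heavy, 14.6% in middle and 24.7% in light genes, and over 70% in the ribosomal protein lists.

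The ferritins, the most abundant single messages of the monosome library, were as light as ribosomal protein mRNAs without such a run at the start of FTL. FTL (chromosome 19, 48965301 to 48966878) had 2353 FPKM in the polysome, 6602 FPKM in the oligosome and 50310 FPKM in the monosome fraction, a position of -4.60. FTH1, the heavy chain, had 3208, 9778 and 42560 FPKM in polysome, oligosome and monosome, a position of -3.91. Both ferritin mRNAs are known to carry an iron-responsive element in their leader, to which iron regulatory proteins bind and block initiation. Their joint share of the summed FPKM was 1.20% in the polysome, 3.45% in the oligosome and 7.38% in the monosome library. In the iron and metallothionein list 5 of 9 were light and 0 heavy, against 26.0% light and 16.5% heavy of all loci. MT2A, which encodes a small metal-binding metallothionein, had 183.3 FPKM in the polysome, 1299 FPKM in the oligosome and 3384 FPKM in the monosome fraction (position -4.38). The membrane proteins of the list lay on the other side, with TFRC, the transferrin receptor, at 0.80 and the iron transporter SLC11A2 at 0.98.

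RNA with no long reading frame was light as a group. Of 15 host genes of small nucleolar RNAs, 14 were light and 0 heavy (median -3.93), against 26.0% light and 16.5% heavy of all loci. The spliced exons of such hosts are known to be short-lived and rich in stop codons. SNHG5 (chromosome 6, 85660950 to 85678748) had the lowest position among loci of 1 named gene at a mean of 10 FPKM or more once small RNA, clone and pseudogene names were left out, -6.99, with 48.3 FPKM in the polysome, 431.6 FPKM in the oligosome and 5533 FPKM in the monosome fraction, 127-fold below the median locus. ZFAS1 had 30.37, 216.4 and 1640 FPKM in polysome, oligosome and monosome (-5.89). SNHG6 and GAS5 were at -5.78 and -5.66. These were the same order of positions as the lightest ribosomal protein mRNAs. The coding host TMEM107 was the member nearest the median locus, at -0.77.

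Of 8 long noncoding RNAs known from the nucleus or as regulators, 7 were light and 0 heavy, with a median of -2.93. Light loci made up 26.0% of all loci and heavy ones 16.5%. NEAT1, the scaffold of nuclear paraspeckles, had 34.11 FPKM in the polysome, 160.7 FPKM in the oligosome and 1050 FPKM in the monosome fraction (position -5.08). LINC00152 followed with 23, 120.4 and 383 FPKM (-4.18), and LINC00657, also called NORAD, was at -2.72. The member not light was TUG1 at 0.44, named after its values were seen. Over all names, 77 of 96 antisense RNAs were light, with a median of -1.91, and 28 of 35 intergenic LINC names, with a median of -1.89, and 0 of either were heavy. The lowest antisense name was C17orf76-AS1 at -6.18. AGAP2-AS1 was the antisense name highest in position at mean FPKM of 5 or more, with 50.89 FPKM in the polysome, 66.34 FPKM in the oligosome and 42.36 FPKM in the monosome fraction (0.08). Without a stated strand setting for counting, antisense reads cannot be told apart from those of the partner gene.

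RANBP10, a Ran-binding protein gene, was at -6.76, with 31 FPKM in the polysome, 45.62 FPKM in the oligosome and 3055 FPKM in the monosome fraction. At the other end RNF10, a ubiquitin ligase gene (chromosome 12, 120533480 to 120577594), had 19020 FPKM in the polysome, 8865 FPKM in the oligosome and 227.9 FPKM in the monosome fraction, a position of 6.20. It alone held 4.11% of the summed polysome FPKM and 0.0181% of the summed monosome FPKM. In normoxia RNF10 had 28880, 885.8 and 24060 FPKM in polysome, oligosome and monosome (position -0.01), so its placement differed by over 6 log2 units between 2 gradients, and which part of the locus gave the signal was not tested, for RNF10 or for RANBP10.

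Short coding sequences were light through a low polysome level, while their ratio of oligosome to monosome was near that of the median locus. Among 165 coding loci whose principal protein has under 100 residues, the median position was -1.68, with 74.5% light and 1.21% heavy, against 14.8% light and 19.6% heavy over 7295 coding loci with a length. Their median centred log2 of polysome over oligosome was -1.76, while that of oligosome over monosome was 0.01. In this class 57% were highest in the oligosome, against 26.3% of coding loci. The 2 heavy members, named after their values were seen, were SRP9, a protein of the signal recognition particle, at 1.70 and the peptide hormone precursor APLN at 1.27. From 100 up to 200 residues the median was -0.20, with 48% highest in the oligosome, and from 200 up to 400 residues it was 0.39. Longer classes had medians of 0.28 (from 400 up to 800 residues), 0.21 (from 800 up to 1600) and 0.50 (1600 or more), so the medians differed mainly between the 2 shortest classes and the rest. Over all 7295 coding loci Spearman's rho between length and position was 0.11 in hypoxia and -0.09 in normoxia. Without ribosomal proteins the shortest class had a median of -1.65 over 157 loci.

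**Figure D3:**
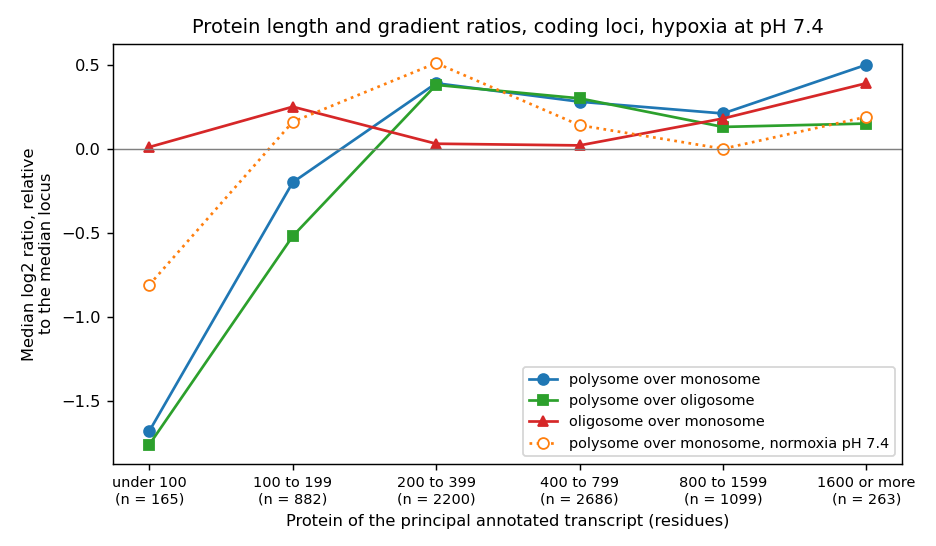
Median log2 ratio relative to the median locus (vertical axis) by length of the principal annotated protein in residues (horizontal axis, number of coding loci in brackets), for 3 pairs of fractions in hypoxia at pH 7.4 and for polysome over monosome in normoxia. Under 100 residues the polysome over oligosome median is -1.76 while the oligosome over monosome median is 0.01, and the normoxia median is -0.81.

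The thymosin mRNAs, which encode small abundant proteins, show the low polysome level with their values. TMSB10, thymosin beta-10, which binds actin monomers and has 44 residues, had 2437 FPKM in the polysome, 20480 FPKM in the oligosome and 35440 FPKM in the monosome fraction, with centred log2 values of -3.17 for polysome over oligosome and -0.79 for oligosome over monosome. TMSB4X, its close relative, had 868, 8463 and 11440 FPKM in polysome, oligosome and monosome (position -3.90). Of 17 small actin-binding and calcium-binding proteins 11 were highest in the oligosome, against 25.5% of all loci. In the same list 6 were light and 3 heavy (median -0.06), against 26.0% light and 16.5% heavy of all loci. The heaviest was ARPC5 of the actin-nucleating Arp2/3 complex at 1.94, whose level in the oligosome (74.59 FPKM) was above that in the polysome (64.75 FPKM).

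Respiratory chain subunits lay on both sides. In complexes II to V 12 of 30 members were light and 3 heavy (median -0.54), against 26.0% light and 16.5% heavy of all loci. In complex I 6 of 25 were light and 2 heavy (median 0.31), a light share no higher than that of all loci. Of the 18 light subunits all but 1 have 168 residues or fewer, the exception being ATP5A1, the alpha subunit of ATP synthase, at -1.36 with 553 residues (named after its values were seen). UQCRH, the hinge protein of complex III, had 82.88 FPKM in the polysome, 382.9 FPKM in the oligosome and 1023 FPKM in the monosome fraction (position -3.79). ATP5I of ATP synthase had 87.34, 419 and 910 FPKM in polysome, oligosome and monosome (-3.54), and NDUFB3 of complex I 32.21, 154.7 and 155.6 FPKM (-2.42). At the heavy end stood UQCRC1, the core subunit of complex III, with 140.4, 42.7 and 49.41 FPKM (1.31), ATP5C1, the central stalk of ATP synthase, at 1.13, and, in complex I, NDUFAB1, the mitochondrial acyl carrier protein, at 1.39 and NDUFA12 at 1.29. These last 2 are short as well, with 156 and 145 residues, so length did not separate light from heavy subunits. The spliceosomal Sm and LSm proteins, a family of short RNA-binding rings, had 7 of 15 light and 0 heavy (median -0.86), from LSM10 at -3.73 to SNRPB2 at 0.83. Their median for polysome over oligosome was -1.33 and for oligosome over monosome -0.16.

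A few mRNAs peaked in the oligosome library with both neighbours low. SCOC, which encodes a short coiled-coil protein of the Golgi, had 18.63 FPKM in the polysome, 84.87 FPKM in the oligosome and 15 FPKM in the monosome fraction. DYNLT3, a dynein light chain gene, had 21.49, 79.92 and 18.92 FPKM in polysome, oligosome and monosome. IMMP1L, a subunit of the mitochondrial inner membrane peptidase, had 45.86, 168.6 and 44.82 FPKM. Their positions were 0.12, 0.00 and -0.15, so the ratio of polysome over monosome alone hides the peak. The other 5 named for this pattern were PTP4A1, FUNDC1, TMEM243, MKKS and SLC35A4, with oligosome levels from 21.95 to 45.23 FPKM and positions between -0.39 and 0.31. Of the 8, 6 encode proteins of 116 to 173 residues. MKKS and SLC35A4 are longer, at 570 and 324 residues.

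**Figure D4:**
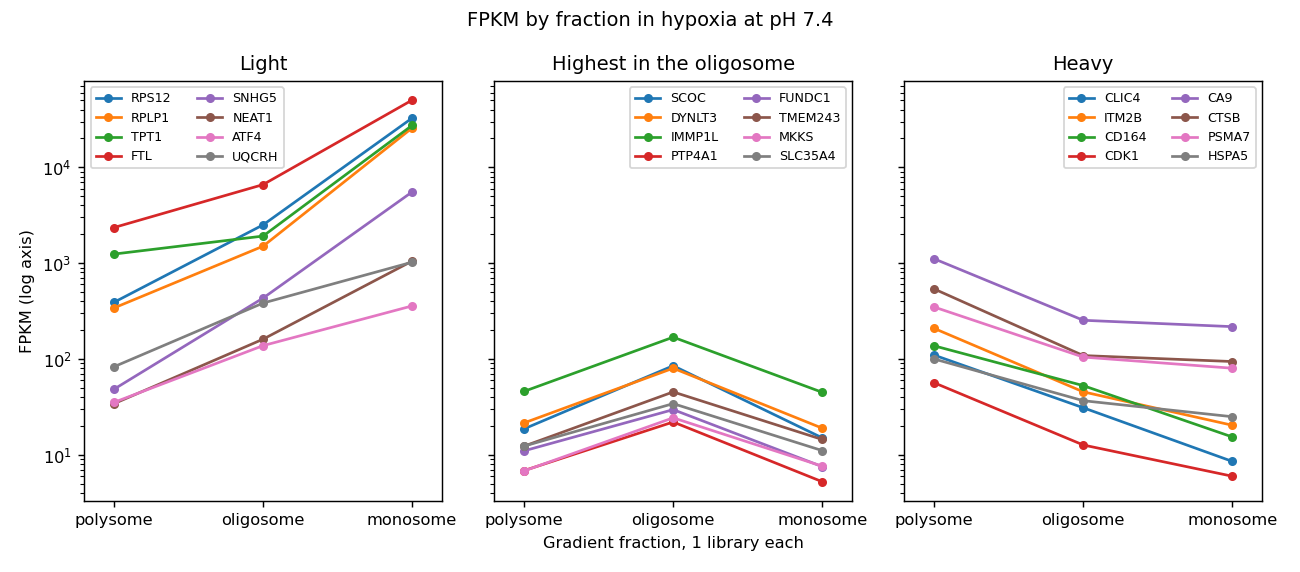
FPKM (log axis) in the polysome, oligosome and monosome libraries of hypoxia at pH 7.4, 1 line per gene, for 8 light genes, the 8 genes furthest in the oligosome and 8 heavy genes. Light genes climb toward the monosome library (FTL from the polysome on: 2353, 6602 and 50310 FPKM), oligosome genes peak in the middle, and heavy genes are highest in the polysome library (CA9 1108, 253.1 and 217.2 FPKM).

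The heaviest named genes after RNF10 were led by CLIC4 (chromosome 1, 24745357 to 24844324), with 109.5 FPKM in the polysome, 30.9 FPKM in the oligosome and 8.514 FPKM in the monosome fraction, a position of 3.36 or 10.3-fold above the median locus. ITM2B, an integral membrane protein gene, had 208, 45.31 and 20.3 FPKM in polysome, oligosome and monosome (3.12). MAD2L1, the spindle checkpoint protein, had 29.38, 10.38 and 2.282 FPKM (3.03). In all 3 the level was highest in the polysome, then the oligosome, then the monosome library. The others were SDCBP (3.04), CD164 (2.90), CDK1, the mitotic kinase (2.86), NUCKS1 (2.86), GGH, the lysosomal gamma-glutamyl hydrolase (2.81), PRDX3, the mitochondrial peroxiredoxin (2.76), GOLM1, a Golgi membrane protein (2.76), and TM9SF3 (2.74). NUCKS1, a nuclear DNA-binding protein gene, had most of its distance between oligosome and monosome (2.42, against 0.52 between polysome and oligosome), with 123.7 FPKM in the polysome, 80.15 FPKM in the oligosome and 14.14 FPKM in the monosome fraction. All 11 had a position above 1 in normoxia too, from 1.18 for NUCKS1 to 2.64 for SDCBP.

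Membrane and secreted proteins are made by ribosomes docked on the endoplasmic reticulum. A predicted membrane stretch (19 residues with a mean hydropathy of 1.6 or more, chosen after the data were seen) was found in 36.1% of heavy, 29.4% of middle and 24.6% of light coding loci, against 30.0% of all of them. The heavy share was higher with a stretch than without one in every length class but the longest. Under 100 residues it was 2.22% with (1 of 45 loci) and 0.833% without (1 of 120), so that class rests on 1 heavy locus each. From 100 up to 200 residues it was 17.6% with and 12.2% without. It was 29.1% with and 25.7% without from 200 up to 400, and 23.4% with and 15% without from 400 up to 800. From 800 up to 1600 it was 21.3% with and 14.8% without. At 1600 residues or more the order was the opposite, 20% with and 29.4% without.

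Lysosomal proteins had the highest median of all lists, 1.46, with 11 of 19 members heavy and 2 light. Across all loci 16.5% were heavy and 26.0% light. CTSB, the cysteine protease cathepsin B, had 536.6 FPKM in the polysome, 108.4 FPKM in the oligosome and 93.89 FPKM in the monosome fraction (position 2.32). PSAP, the precursor of the saposins that help degrade sphingolipids, had 442.3, 121.5 and 98.31 FPKM in polysome, oligosome and monosome (1.98). The light ones were NPC2, a cholesterol carrier, with 380.3, 320.9 and 697.1 FPKM (-1.05), and the glycogen-degrading GAA at -1.79, named after its values were seen. The vacuolar proton pump, which acidifies lysosomes, had 6 of 12 heavy and 2 light (median 1.18). ATP6AP2, an accessory subunit, had 65.71, 16.21 and 9.104 FPKM (2.54), while the light members were the small subunits ATP6V1F (-1.47) and ATP6V1G1 (-1.20).

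Cell surface receptors and integrins had 9 of 16 heavy and 0 light (median 1.10), against 16.5% heavy and 26.0% light of all loci. ITGB1, the beta-1 integrin, had 50.79 FPKM in the polysome, 18.85 FPKM in the oligosome and 9.051 FPKM in the monosome fraction (position 2.19), and MET, the receptor of hepatocyte growth factor, had 21.74, 8.505 and 4.382 FPKM (1.90). ITGA5, the fibronectin receptor subunit, was lowest of those with at least 5 FPKM, at 0.72. Collagens and matrix proteins had 8 of 15 heavy and 0 light (median 1.03), from TGFBI at -0.35 with 723.9, 473.3 and 813.9 FPKM to COL6A1 at 1.95 and COL1A2 at 1.67. COL1A2, the alpha-2 chain of type I collagen, had 249.9, 142.3 and 68.89 FPKM, while its partner chain COL1A1 was at 0.56. Endoplasmic reticulum chaperones had 6 of 12 heavy and 0 light (median 0.97). HSPA5, the chaperone BiP, had 99.76, 36.62 and 24.92 FPKM (1.78), CRELD2 83.19, 25.93 and 10.49 FPKM (2.69), and CALR, calreticulin, the lowest, 606, 213 and 415.9 FPKM (0.36). Enzymes of sterol and fatty acid synthesis, many of them in the same membrane, had 9 of 21 heavy and 0 light (median 0.84). SCAP, the sterol sensor that escorts SREBP proteins, was at 1.78, against HMGCS1, which makes HMG-CoA, at -0.51.

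Proteasome subunits, which form the cytosolic and nuclear protease for ubiquitin-tagged proteins, lay on the heavy side as well. Of 24 measured 12 were heavy and 0 light (median 1.01), against 16.5% heavy and 26.0% light of all loci. In the oligosome 0 of the 24 were highest, against 25.5% of all loci. PSMA7, a subunit of the catalytic core, had 347.7 FPKM in the polysome, 104.5 FPKM in the oligosome and 79.96 FPKM in the monosome fraction (position 1.93). PSMD7, of the regulatory particle, had 68.79, 20.14 and 17.38 FPKM in polysome, oligosome and monosome (1.75). At the low end PSMB4 had 153.4, 63.68 and 205.6 FPKM (-0.60). The median of oligosome over monosome was -0.58 and that of polysome over oligosome 1.51. Relative to the median locus, the list was thus low in the oligosome against both other fractions.

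Targets of hypoxia-inducible factors, which low oxygen is known to induce, had 10 of 22 heavy and 0 light, with a median of 0.87. For all loci the shares were 16.5% heavy and 26.0% light. CA9 had 1108 FPKM in the polysome, 253.1 FPKM in the oligosome and 217.2 FPKM in the monosome fraction (position 2.17), and its relative CA12 205.8, 42.73 and 37.64 FPKM (2.24). NDRG1 had 1572, 484.5 and 404.3 FPKM (1.78), and IGFBP3 533.5, 115 and 121.6 FPKM (1.95). These 4 had the highest positions of the list. VEGFA, whose long structured leader is known to hold internal ribosome entry sites, had 478.8, 380.8 and 809.2 FPKM in polysome, oligosome and monosome, at -0.93 the lowest of the list. PDK1, the kinase that shuts the pyruvate dehydrogenase gate, was at -0.54. Glycolytic genes had 4 of 13 heavy and 1 light (median 0.71). Hexokinase 2 (HK2), the first enzyme, had 54.78, 21.3 and 15.55 FPKM (1.57) and PGAM1 140.1, 32.09 and 36.81 FPKM (1.72), while the light one was GAPDH with 6485 FPKM in the polysome, 3331 FPKM in the oligosome and 12310 FPKM in the monosome fraction (-1.10).

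Genes known for regulated translation were spread widely. In the integrated stress response 5 of 17 were light and 2 heavy (median 0.00), shares near the 26.0% and 16.5% of all loci. ATF4, whose mRNA has upstream reading frames that hold it back unless eIF2 is phosphorylated, had 35.2 FPKM in the polysome, 137.6 FPKM in the oligosome and 357.4 FPKM in the monosome fraction (position -3.49). DDIT3, the transcription factor CHOP, had 15.84, 63.64 and 77.87 FPKM in polysome, oligosome and monosome (-2.41), and the heavy members were the lipoprotein receptor VLDLR at 1.73 and the serine synthesis enzyme PSAT1 at 1.08. Of 11 polyamine genes 2 were light and 2 heavy, with a median of -0.70. The light ones were spermidine synthase SRM (-1.49) and the acetyltransferase SAT1 (-1.27), and the heavy ones AMD1 (1.23) and DOHH (1.27). Of the 11, 6 were highest in the oligosome, against 25.5% of all loci. Of 12 selenoproteins 3 were light, a share near that of all loci, and 1 heavy (median 0.24). SEPW1 was at -5.05 (10.5, 124.7 and 334.7 FPKM) and GPX1, glutathione peroxidase, at -2.57 (80.49, 383.2 and 425.2 FPKM), against SEPHS2 at 1.07. Translation initiation factors had 8 of 29 heavy and 7 light (median 0.05). EIF1, the small start codon selection factor, had 381.6, 996.6 and 1408 FPKM (-2.06) and EIF2S1, the eIF2 subunit that stress kinases phosphorylate, 79.28, 15.99 and 15.04 FPKM (2.14).

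Short-lived regulatory mRNAs were near the median locus. Immediate-early genes had 3 of 20 light and 0 heavy (median 0.00), with ZFP36, which binds AU-rich mRNAs, at -2.56 (6.74, 22.46 and 39.44 FPKM) and EGR1 at -1.77. The third light one, FOS at -1.05, lies outside the naming rule. Cytokines and growth factors had 5 of 27 heavy and 7 light (median 0.18), shares near the 16.5% and 26.0% of all loci. VEGFB had 95.48 FPKM in the polysome, 262.8 FPKM in the oligosome and 290.7 FPKM in the monosome fraction (-1.77), CXCL2 was at -2.44 and PDGFC at 1.77. Of 18 p53 targets 3 were heavy, a share near that of all loci, and 3 light (median 0.08). Among them were RPS27L, a ribosomal protein relative, at -2.77 (63.61, 366.9 and 388.2 FPKM) and TP53I3, the highest at 5 FPKM or more, at 0.45.

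In the cell cycle lists the heavy end held the cyclin-dependent kinase and the replication clamp. Mitosis genes had 7 of 29 heavy and 0 light (median 0.36), from KIF23 at -0.91 to CDK1 and MAD2L1. DNA replication genes had 5 of 26 heavy and 1 light (median 0.13), a heavy share near the 16.5% of all loci, of which 26.0% were light. PCNA, the replication clamp, had 84.15 FPKM in the polysome, 14.75 FPKM in the oligosome and 13.99 FPKM in the monosome fraction (position 2.33), and TYMS, thymidylate synthase, had 112, 31.8 and 17.64 FPKM (2.42). RPA3, the smallest subunit of the single-strand binding complex, had 43.24, 103.9 and 73.07 FPKM (-0.92), and the light member was POLA1, a DNA polymerase subunit, at -1.36 (named after its values were seen). DNA repair genes had 2 of 23 heavy and 1 light (median -0.09), with XRCC6 (Ku70), which binds broken DNA ends, at 1.09. Histone genes of the replication-dependent class, whose mRNAs are known to end without a poly(A) tail, had 5 of 12 light and 0 heavy (median -0.46) at low levels, with HIST1H2BK lowest of those named (3.672, 12.15 and 10.6 FPKM, -1.49).

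Nuclear proteins divided by family. Large chromatin regulators had 5 of 17 heavy and 0 light (median 0.84), led by the nucleosome remodeller CHD3 (73.72 FPKM in the polysome, 43.65 FPKM in the oligosome and 16.25 FPKM in the monosome fraction, position 1.94). Zinc finger genes named ZNF had 41 of 158 light and 7 heavy (median -0.37), a share of light close to that of all loci, with ZNF692 at -3.20 and ZNF292 at 1.41. Splicing factors had 8 of 30 heavy and 3 light (median 0.47). HNRNPA2B1, an RNA-binding protein of spliced and transported mRNA, had 440.8, 79.11 and 81.63 FPKM (2.24), while SRSF6 had 19.91, 28.59 and 96.93 FPKM (-2.41) and SRSF5 97.63, 129.3 and 252.6 FPKM (-1.54). Ribosome biogenesis factors had 3 of 27 heavy and 4 light (median 0.19), against 16.5% heavy and 26.0% light of all loci. NOP56, itself a host of small nucleolar RNAs, had 10.69, 13.66 and 54.46 FPKM (-2.42), the very short NOP10 69.19, 345.1 and 447.5 FPKM (-2.85), and GAR1, of the pseudouridine synthase complex, 24.8, 9.015 and 2.971 FPKM (2.52).

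Cytoplasmic housekeeping lists were mostly near or above the median locus. Their counts stand beside 16.5% heavy and 26.0% light of all loci. Giant cytoskeletal and motor proteins had 4 of 17 heavy and 0 light (median 0.89), with AHNAK2 at 2.09 and the spectrin SPTBN1 at 1.97. Actins and tubulins had 4 of 8 heavy and 0 light (median 0.68), with ACTB, beta-actin, at 4433 FPKM in the polysome, 859.4 FPKM in the oligosome and 1418 FPKM in the monosome fraction (1.46) against the alpha-tubulin TUBA1B at 671.2, 621.1 and 1115 FPKM (-0.91). Autophagy genes had 5 of 21 heavy and 1 light (median 0.38), the light one being ATG12, a small ubiquitin-like protein (6.666, 51.98 and 25.61 FPKM, -1.97), and the highest NBR1, a cargo receptor (1.89). Heat shock proteins had 3 of 14 heavy and 2 light (median 0.32). Among them AHSA1, an activator of HSP90, was at 2.09 and the inducible cytosolic HSP90AA1 at 1.25, while HSPA8 and HSP90AB1, the constitutive cytosolic chaperones, were at -1.59 (316.1, 440.1 and 841.7 FPKM) and -1.38 (178.3, 190.5 and 410.4 FPKM). Aminoacyl-tRNA synthetases had 1 of 18 heavy and 2 light (median 0.44), with QARS, the glutaminyl enzyme, at -2.57 (37.94, 78.41 and 203.2 FPKM) and NARS, the asparaginyl enzyme, at 1.00. Mitochondrial ribosomal proteins had 10 of 56 heavy, a share near that of all loci, and 7 light (median 0.28). They ran from MRPL11 at -2.25 to MRPL19 at 2.07, in contrast to the cytosolic ribosomal proteins.

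The same positions were computed in the 3 normoxia libraries at pH 7.4, which share no library with hypoxia. Over the 11650 loci Spearman's rho between the 2 gradients was 0.819, a description of loci measured once in each. Of light loci in hypoxia 64.9% were light in normoxia, and 83.9% of the 2342 light in normoxia were light in hypoxia. Of heavy loci in hypoxia 58.3% were heavy in normoxia, and 63.4% of the 1763 heavy in normoxia were heavy in hypoxia. The spread of positions was alike, with an SD over loci of 1.5 in hypoxia and 1.43 in normoxia.

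Ribosomal protein mRNAs lay further to the light side in hypoxia. The median was -4.03 in hypoxia and -1.63 in normoxia for the large subunit, and -4.05 in hypoxia and -1.56 in normoxia for the small subunit. Of the 58, 56 had a lower position in hypoxia, and 58 were light in hypoxia against 45 in normoxia. RPL37A had 753, 2877 and 23350 FPKM in polysome, oligosome and monosome in hypoxia (-5.13), against 1406, 3671 and 6288 FPKM in normoxia (-2.43). The other TOP mRNAs had a median of -2.61 in hypoxia and -0.66 in normoxia, and 16 of 17 had a lower position in hypoxia. Respiratory complexes II to V had a median of -0.54 in hypoxia and 0.58 in normoxia, and complex I 0.31 in hypoxia and 0.71 in normoxia. Mitochondrial ribosomal proteins were at 0.28 in hypoxia and 0.91 in normoxia, proteasome subunits at 1.01 in hypoxia and 1.43 in normoxia, and Sm and LSm proteins at -0.86 in hypoxia and -0.02 in normoxia. Loci of under 100 residues had a median of -1.68 in hypoxia and -0.81 in normoxia.

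Lists of secreted, membrane and large proteins lay further to the heavy side in hypoxia. Collagens and matrix proteins had a median of 1.03 in hypoxia and 0.43 in normoxia, and 15 of 15 members had a higher position in hypoxia. For giant cytoskeletal and motor proteins it was 0.89 in hypoxia and 0.14 in normoxia (15 of 17 members), and for lysosomal proteins 1.46 in hypoxia and 0.55 in normoxia (16 of 19). Targets of hypoxia-inducible factors were at 0.87 in hypoxia and 0.12 in normoxia (16 of 22), and immediate-early genes at 0.00 in hypoxia and -0.73 in normoxia (20 of 20). Over all loci 5504 of 11650 had a higher position in hypoxia. Unlike the ribosomal protein mRNAs, both ferritins had a higher position in hypoxia, FTL with -4.60 in hypoxia and -5.63 in normoxia, and FTH1 with -3.91 in hypoxia and -4.96 in normoxia. All these differences set 1 gradient against 1 other, so differences between the gradients in fraction limits or depth cannot be told apart from the oxygen level.

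**Figure D5:**
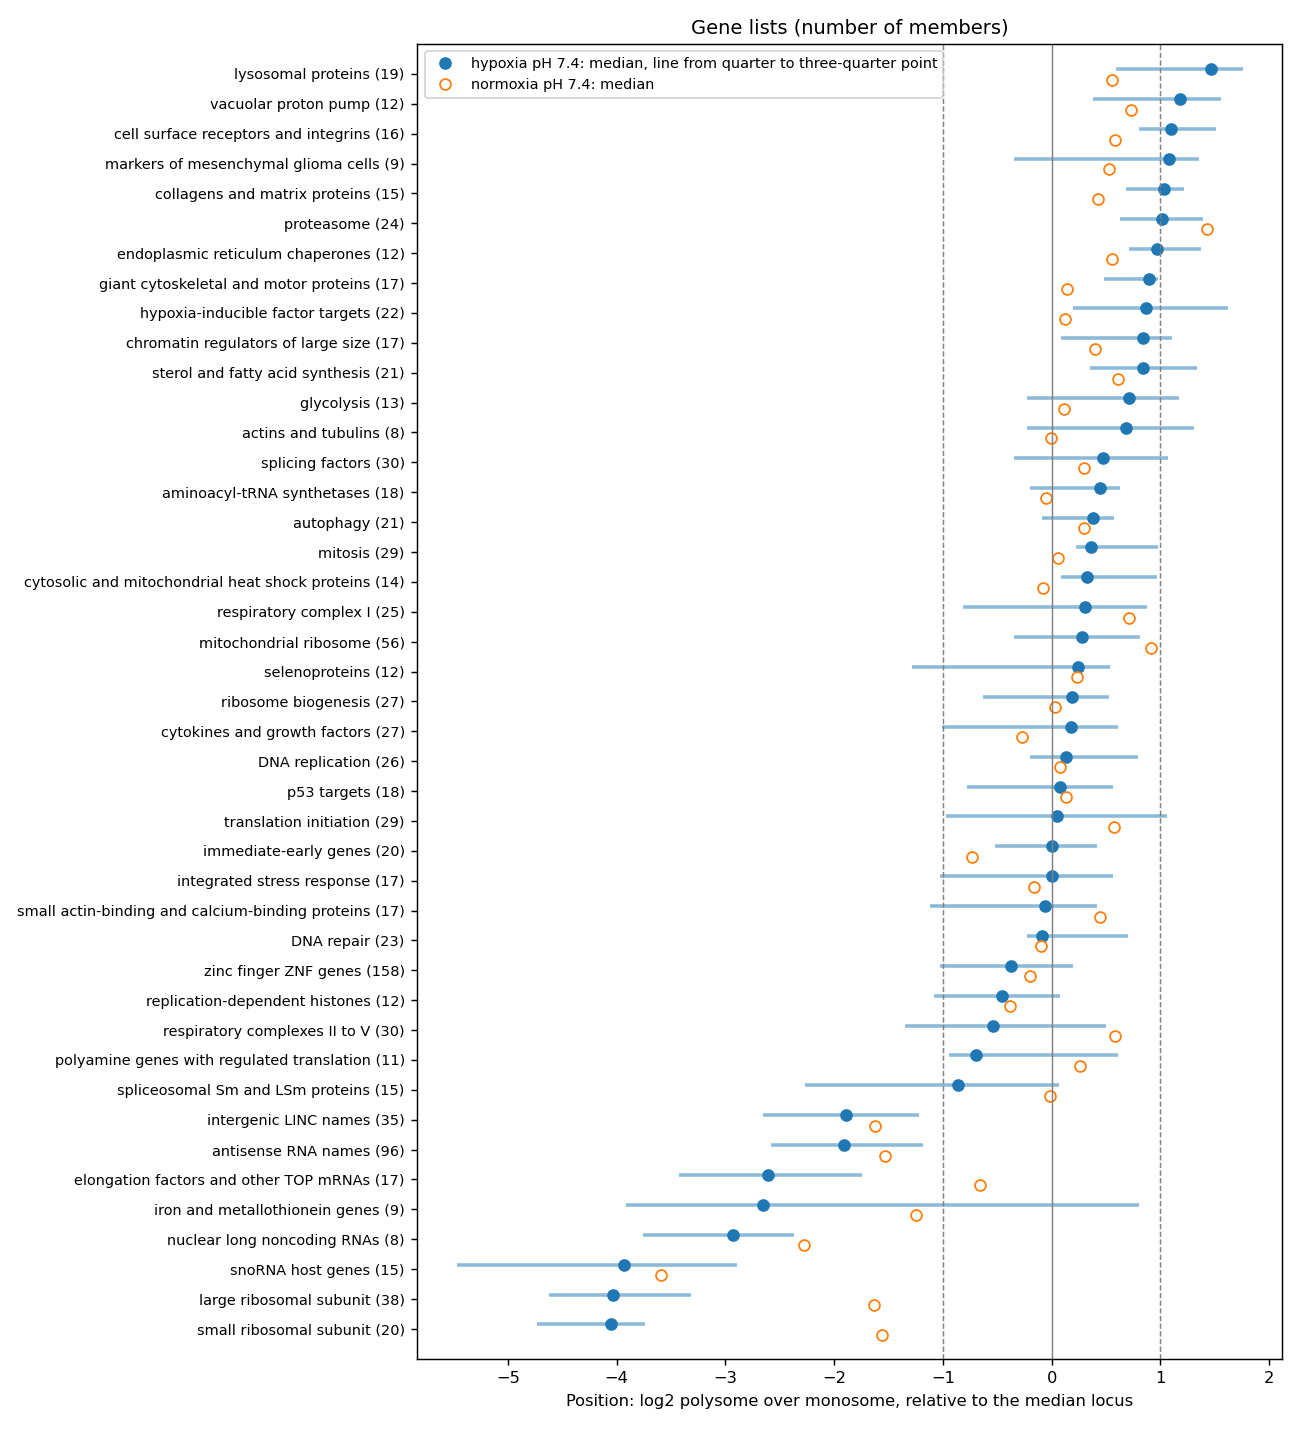
Median gradient position (log2 polysome over monosome relative to the median locus, horizontal axis) of each gene list, with the number of members in brackets. Filled points with lines from the lower to the upper quartile are hypoxia at pH 7.4, open points are normoxia at pH 7.4, and dashed lines mark 2-fold. The ribosomal lists are at -4.03 and -4.05 in hypoxia against -1.63 and -1.56 in normoxia, and the lysosomal list at 1.46 in hypoxia against 0.55 in normoxia.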

How the data were processed

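Libraries of the 3 gradient fractions were made with a kit that keeps strand, per the labels' protocols. Tools listed without roles in the submitters' processing notes are STAR 2.5.0, Cufflinks 2.2.1, Cuffnorm and bcl2fastq, with the build GRCh38. For annotation, strand setting and normalization, the choice was not given in the sources used here. Per assembled locus, the authors deposited FPKM, and a signal, which is their FPKM, averaged over lines of the same gene name, times 1 RNA factor per library (the same quotient on 22089 of 22089 polysome lines). The signal was used only to recover the factors. Another 12 columns of per-sample values were not used. Positions were computed with Python 3.11.15 and pandas 2.3.3, with a pseudocount of 1 FPKM, which draws low loci toward the median, and were tested on simulated data. Older gene names were matched through RefSeq synonyms. Gene type, coordinates and protein length came from GENCODE 29 (8107 loci matched), since no protein table was given. Members, the 41 gene lists (1145 genes) and 3 lists by name pattern were chosen with earlier results of these data known. Among loci of 1 gene, without small RNA, clone or pseudogene names, named genes were the 12 highest and 12 lowest positions and the 8 furthest in the oligosome at a mean of 10 FPKM or more, the 8 most abundant, and the 2 highest and 2 lowest of each list at 5 FPKM or more. A few genes that this rule picks are not reported here. The alternatives are given in the closing section.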

Additional observations from a re-analysis of the deposited data

Results flagged for a closer look

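Loci called on opposite sides of the median locus by 2-fold or more in the hypoxia and normoxia gradients were picked out, 18 of 11650. Each rests on 1 gradient per condition, and the difference was not tested. Of the 18, 6 were light in hypoxia and heavy in normoxia, and 12 heavy in hypoxia and light in normoxia. Of the 18, 5 are loci that alone carry the name of a coding gene. NPM1 was at -1.43 in hypoxia (618.9, 589.4 and 1479 FPKM in polysome, oligosome and monosome) and at 1.05 in normoxia (1387, 344.2 and 551.5 FPKM). SLC25A5, the ADP/ATP carrier of the inner mitochondrial membrane, was at -1.29 in hypoxia (261.6, 224.4 and 567.9 FPKM) and at 1.05 in normoxia (551.9, 128.9 and 220.2 FPKM). ARGLU1 was at -1.42 in hypoxia and at 1.25 in normoxia. On the other side, PCCA, a subunit of propionyl-CoA carboxylase, was at 1.33 in hypoxia (7.292, 3.498 and 1.91 FPKM) and at -1.84 in normoxia (2.491, 4.354 and 9.349 FPKM), and PRKRIR was at 1.21 in hypoxia and at -1.70 in normoxia. Of the 12 heavy in hypoxia and light in normoxia, 9 have no gene name, and the most abundant of these had 8079, 3303 and 2372 FPKM in hypoxia (1.59) and 3757, 7695 and 10870 FPKM in normoxia (-1.81).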

How the results depend on the processing

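No paired analysis was possible because each fraction has 1 library and no test was run, and leaving out a replicate was not possible for the same reason. The loci called heavy and light were 1918 and 3027 as reported. They were 998 and 1776 with a pseudocount of 5, 1157 and 1852 at a mean of 5 FPKM or more (fewer loci, 1773 of them highest in the oligosome), 177 and 1495 at 4-fold, and 7521 and 1439 with the authors' RNA factors and no centring, which by construction moves every locus toward the polysome. Heavy loci were 3451 at 1.5-fold and 1073 with the mean of polysome and oligosome over monosome, and light loci 2015 with polysome over oligosome. Lists with a median of 1 or more were 6 as reported, 1 with a pseudocount of 5, 3 at a mean of 5 FPKM, 11 without centring, 32 with RNA factors, 3 with polysome over oligosome and 0 with the mean of both over monosome. The median under 100 residues minus that from 400 up to 800 was -1.96 as reported and -0.81 with the mean of both over monosome. The share of light genes with a run was 24.7% as reported, 15.7% for runs of at least 8, 45.5% within 20 bases and 21.0% without ribosomal proteins and the TOP list, the last chosen after the data were seen.

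Changes of sign are listed only for named genes called heavy or light as reported. Genes between the thresholds can turn as well and are not listed. With RNA factors the sign turned for RPL3 (0.10), HSPA8 (0.13), SRSF5 (0.18), VIM (0.20), SRM (0.21), HIST1H2BK (0.02), ATP6V1F (0.25), NPM1 (0.29), HSP90AB1 (0.34), SAT1 (0.42), ARGLU1 (0.22), FOS (0.36), ATP5A1 (0.36), SLC25A5 (0.43), ATP6V1G1 (0.50), LGALS1 (0.61), GAPDH (0.62), SARS (0.65) and NPC2 (0.67). With polysome over oligosome it turned for GAPDH (0.87), SARS (0.32), NPC2 (0.15), ZNF146 (-0.97), ARGLU1 (0.10), SLC25A5 (0.13), ATP5A1 (0.06), PRKRIR (-0.05), SRP9 (-1.07), ZNF292 (-0.15) and ARPC5 (-0.30), and with the mean of both over monosome for ATG12 (0.04). Apart from the RNA factors, whose shift was by construction, the cause was not tested. Of 2409 values of named genes under the alternatives, 2172 kept their class, as did 455 of 526 list medians. Keeping the class means that a heavy or light value stayed so, and a value between the thresholds stayed between them. Among list medians that were heavy or light as reported, 0 changed sign. For genes and lists between the thresholds as reported, changes of sign were not counted. Loci near 1 FPKM are limited by depth, which is unknown in reads.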
